A study of Oryza sativa with 6 samples.

Results

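The miR160 family was described in small RNA of germinating rice seeds, as the 19 of 641 miRNA names in the deposited table whose number after "mir" is 160. The choice used the names only, not the counts. Seeds of the rice cultivar Kasalath germinated on wet tissue without medium at 35 °C (the hot group, 3 libraries) or at 25 °C (the normal group, 3 libraries), and both groups are labelled as 5 days after germination. The hot dishes stood in a cooled incubator and the normal dishes in the laboratory under a cardboard box, so temperature and place cannot be told apart. Of 40 seeds, 5 went into each dish, with 4 dishes per temperature, kept damp with tap water to day 8. The design text speaks of biological triplicates, but no label ties a library to its dishes, so p-values measure the spread between these libraries, which may be partly technical. Each library is whole germinating seed, in which fewer cells holding a miRNA and less of it per cell cannot be told apart.

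miR160 is among the miRNA families shared by most land plants. It pairs with transcripts of auxin response factors (ARFs) that mostly act as repressors, known in Arabidopsis as ARF10, ARF16 and ARF17, and directs their cleavage. Auxin response factors bind promoters of auxin-regulated genes, so the family helps to set how a tissue answers auxin. In Arabidopsis, plants with a miR160-resistant ARF10 germinate poorly on abscisic acid, which ties the family to germination. The guide strand comes from the 5p arm of the hairpin.

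Of the 19 names, 8 carry the suffix 5p, 0 carry 3p and 11 carry none, while 146 of all 641 names carry 3p. All 19 names had a count above 0 in all 6 libraries. No row of another family was identical to a miR160 row or a whole multiple of one. Dividing the deposited counts by the normalised values gave library totals of 157488, 240428 and 243859 in hot libraries 1 to 3, and of 264112, 250255 and 275549 in normal libraries 1 to 3. Hot library 1 had the smallest total. What these totals count is not stated. The summed counts of all names exceed them in the hot libraries but not in the normal ones. Those sums hold repeated entries, so this does not settle whether the totals measure sequencing depth. Levels below are given in RPM, the count over this total times 1000000, unless stated otherwise. They keep the scale of the deposited values, on which hot libraries stand higher for most miRNAs (median log2 fold change of 0.99 over the 253 tested names).

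The names are not 19 measurements. Rows of 8 names held 1 set of counts, multiplied by 1 to 7: mir160g, mir160g-5p and mir160j were identical, mir160h was 2 times that row, mir160d-5p 3 times, mir160b-5p 5 times, mir160c-5p 6 times and mir160a-5p 7 times, in all 6 libraries. Together with 11 rows that were no exact multiple, the family held 12 distinct count patterns. The rows mir160i and mir160 missed being 1 and 4 times the mir160g row by 1 count each, in hot library 1. Counts of 5 of the 8 5p names, those of a, b, c, d and g, were thus 1 set of counts, and the 3 others (mir160-5p, mir160e-5p and mir160f-5p) were not.

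The smallest row, mir160g, shows how few reads stand behind the shared set. It had 2, 21 and 19 counts in hot libraries 1 to 3, against 2, 7 and 5 counts in normal libraries 1 to 3. Its levels were 12.7, 87.3 and 77.9 RPM in the hot libraries, against 7.57, 28.0 and 18.1 RPM in the normal libraries. Hot libraries 2 and 3 stood above all 3 normal libraries, while hot library 1 lay among the normal ones, so the groups overlap. The exact Poisson 95% intervals, which cover counting error only, were 1.54 to 45.9 RPM in hot library 1, 54.1 to 133.5 in hot library 2 and 46.9 to 121.7 in hot library 3. The interval of hot library 1 did not meet those of the other 2 hot libraries. In the normal libraries the intervals were 0.917 to 27.4, 11.3 to 57.6 and 5.89 to 42.4 RPM, and all 3 overlap.

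The pooled reads of mir160g were 42 in the hot and 14 in the normal libraries, a ratio of 3.69 after scaling by the totals (exact binomial 95% interval 1.98 to 7.32, counting error only). That interval leaves out the spread between libraries. Without hot library 1 the pooled counts were 40 against 14 and the ratio was 4.66. Hot library 1 alone stood at 0.71 of the normal mean.

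**Figure D1:**
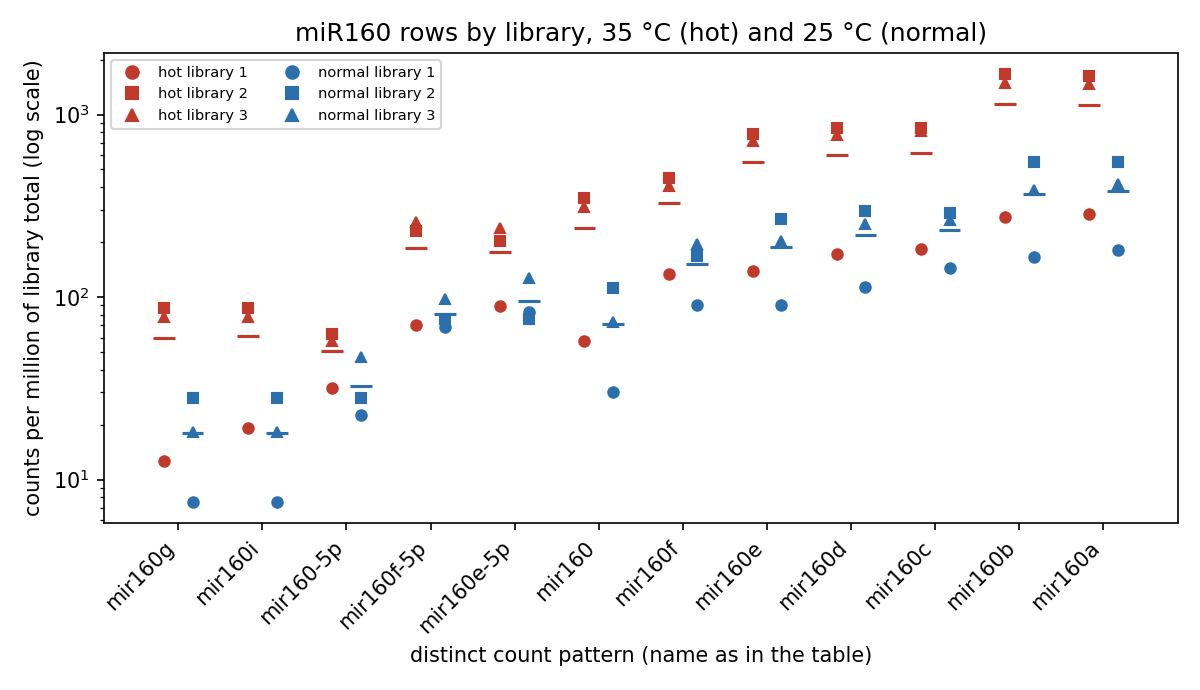
Level of each of the 12 distinct miR160 count patterns in every library, in RPM on a log axis, with short lines at the group means. In each pattern hot libraries 2 and 3 lie above all normal libraries and hot library 1 lies lower, among the normal ones.

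The 2 most abundant names were mir160a and mir160b. The name mir160a had 45, 393 and 359 counts in the hot libraries, against 48, 137 and 114 in the normal libraries. Its level averaged 1131 ± 736.4 RPM in hot and 381 ± 185 in normal libraries (SD, n = 3 each). The name mir160b had 43, 399 and 364 counts in the hot libraries, against 44, 137 and 106 in the normal libraries. Both names repeat the picture of mir160g, with hot libraries 2 and 3 high, hot library 1 between normal libraries 1 and 3, and normal library 1 lowest.

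At middle level stood mir160c, mir160d, mir160e and mir160f, whose names carry no arm. For mir160c, counts were 29, 202 and 199 in the hot and 38, 72 and 73 in the normal libraries. For mir160d they were 27, 204 and 188 in the hot and 30, 74 and 69 in the normal libraries. For mir160e they were 22, 189 and 174 in the hot and 24, 67 and 56 in the normal libraries. The hot means of these 3 names were 2.64, 2.71 and 2.92 times the normal means. The counts of mir160f were 21, 108 and 99 in the hot and 24, 42 and 54 in the normal libraries, a ratio of means of 2.17. All 4 names had hot libraries 2 and 3 high and overlapping groups.

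The 3 separate 5p names had lower ratios of hot to normal means than the mir160g set, with overlapping groups. The name mir160-5p had 5, 15 and 14 counts in the hot libraries, against 6, 7 and 13 in the normal libraries, with means of 50.5 ± 16.4 RPM in hot and 32.6 ± 12.9 in normal libraries (SD, n = 3 each). Its pooled ratio was 1.61 (exact binomial 95% interval 0.94 to 2.79, counting error only). The name mir160e-5p had 14, 49 and 58 counts in the hot libraries, against 22, 19 and 35 in the normal libraries. The name mir160f-5p had 11, 55 and 63 counts in the hot libraries, against 18, 19 and 27 in the normal libraries. Their ratios of hot to normal means were 1.85 and 2.30, compared with 3.31 for the mir160g set. No test of the difference between these names and the set was made, since the larger rows hold counts in common.

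Differences between rows outside the set also held whole multiples of the mir160g counts. The difference between mir160a and mir160d was exactly 9 times the mir160g row in all 6 libraries, and that between mir160b and mir160e was 10 times it, 1 count aside. Removing the largest whole multiple of mir160g that each row could hold, 18 times for mir160a and 9 times for mir160d, left the same remainder in both: 9, 15 and 17 counts in the hot and 12, 11 and 24 in the normal libraries. The same step left 4, 0 and 3 counts of mir160e in the hot and 6, 4 and 11 in the normal libraries. For mir160f, after 5 times the row, it left 11, 3 and 4 counts in the hot and 14, 7 and 29 in the normal libraries. In 9 of the 11 rows the ratio to mir160g was lowest in hot library 2, which set the multiple. There the remainder is below the mir160g count by construction, so no comparison between temperatures was drawn from them.

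Relative to mir160g in the same library, a ratio free of any scaling, mir160e-5p stood at 7.0, 2.33 and 3.05 in the hot and 11.0, 2.71 and 7.0 in the normal libraries. For mir160f the ratio was 10.5, 5.14 and 5.21 in the hot and 12.0, 6.0 and 10.8 in the normal libraries. For mir160-5p it was 2.5, 0.714 and 0.737 in the hot and 3.0, 1.0 and 2.6 in the normal libraries. The groups overlap in all 3, because hot library 1 sits with normal libraries 1 and 3 while normal library 2 sits nearer to hot libraries 2 and 3. The ratio of hot library 1 rests on 2 counts of mir160g, as does that of normal library 1.

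**Figure D2:**
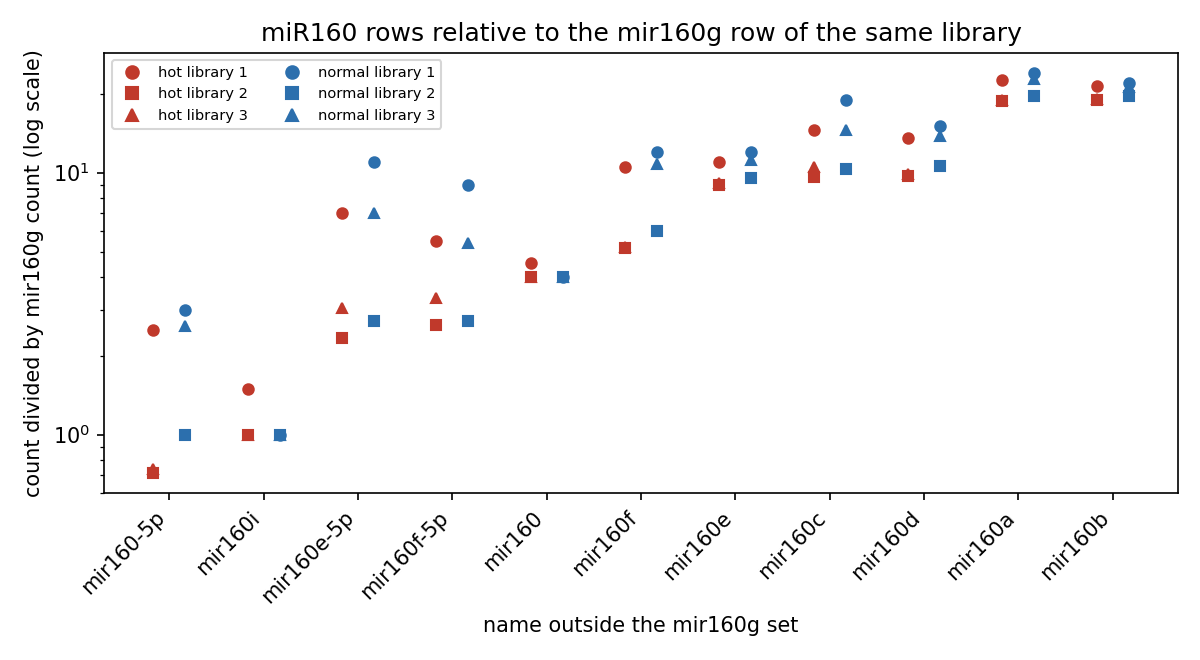
Count of each of the 11 names outside the mir160g set divided by the mir160g count of the same library, on a log axis. The ratio of mir160-5p runs from 0.714 to 3.0 and that of mir160a from 18.7 to 24.0, and in rows other than mir160 and mir160i hot library 2 is lowest.

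The temperature comparison was made on all names with edgeR's quasi-likelihood test and TMM scaling, which centres the fold changes of the tested names near 0, with Benjamini-Hochberg adjustment over all names and a threshold of 0.05. Of the 19 miR160 names, 14 passed the filter on low counts, and 0 of them passed the test in either direction, with 0 also at an unadjusted p under 0.05. The DESeq2 test and limma-voom called 0 as well. Over all 253 tested names, 22.9% were called. The median log2 fold change of the 14 names was 0.54, beside 0.00588 for all tested names, and 13 of the 14 values were positive, beside 52.6% of all. Because 5 of the 14 are whole multiples of 1 row and others hold it too, that count of signs is not a count of separate observations.

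The tested multiples of mir160g had log2 fold changes of 0.66 to 0.69 with standard errors of 0.68 to 0.72, and adjusted p of 0.494 to 0.497 in edgeR. For mir160a the value was 0.51 (SE 0.59, adjusted p = 0.54) and for mir160b 0.58 (SE 0.62, adjusted p = 0.51). The names mir160f-5p, mir160f and mir160e-5p had 0.18, 0.12 and -0.10, with edgeR adjusted p of 0.802, 0.882 and 0.878. The last is the 1 negative value under TMM, and it turned positive with the library totals (0.89), without a filter (0.06) and without the miR156 names (0.22). The value of mir160f turned to -0.04 with column sums alone. The 5 names that failed the filter were mir160-5p, mir160g, mir160g-5p, mir160i and mir160j. In a fit without a filter 0 of the 19 names were called, and these 5 had log2 fold changes of -0.16 (mir160-5p), 0.94 (mir160i) and 0.89 (the 3 identical rows).

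The call depended on the scaling together with the libraries, filter or block used. With the deposited library totals in place of TMM, the 14 values ran from 0.89 to 1.75 with a median of 1.61, and all were positive. None passed the adjusted threshold in edgeR (adjusted p from 0.0841 to 0.188), although 11 had an unadjusted p under 0.05, and 33.2% of all tested names were called. The median of all tested names was 0.99 on that scale. When hot library 1 was also left out, 17 of 19 miR160 names were called higher, where 48.9% of all tested names were called and 47.5% were called higher, and mir160a had 2.03 (SE 0.42, adjusted p = 0.00506 in edgeR). The exceptions were mir160-5p (0.86, adjusted p = 0.246) and mir160e-5p (1.21, adjusted p = 0.0503). With the totals and without normal library 3, mir160a and mir160b were called, where 41.7% of all were. On that scale 0 were called without hot library 2, hot library 3, normal library 1 or normal library 2, where 27.8%, 22.6%, 23.2% and 22.3% of tested names were. Without a filter the totals called 10 of 19 miR160 names, where 15.6% of all were. With the replicate number as a block the totals called 12 of 14, where 52.2% were, although the numbers were not shown to pair the libraries. Under TMM without hot library 1, 0 of 19 passed, with 1.09 for the mir160g set, where 43.5% of tested names were called. The fits that joined the totals with a left-out library were added after the data were seen. Of the 19 names, 8 are whole multiples of 1 row and others hold its counts. These counts of calls are therefore not counts of separate observations, and their shares cannot be weighed against those of all names. The fits also took repeated entries as separate reads.

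**Figure D3:**
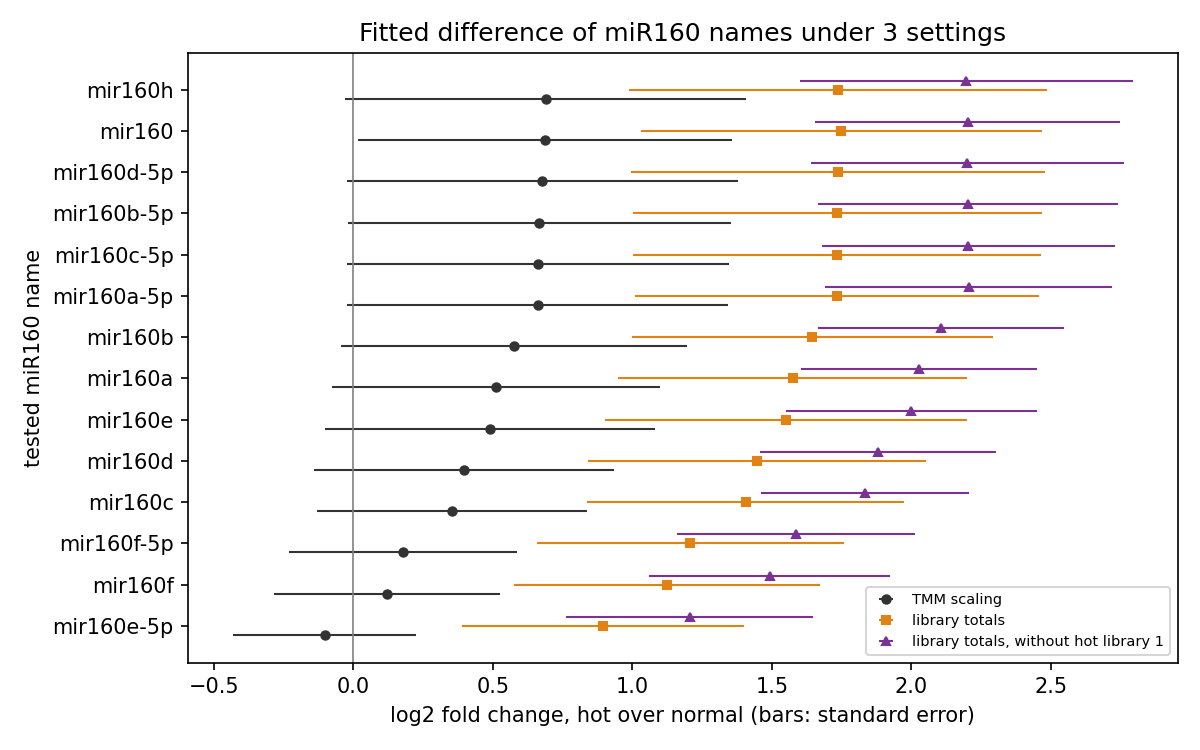
Log2 fold change, hot over normal, with its standard error for the 14 tested miR160 names, under TMM scaling, with library totals, and with library totals without hot library 1. Values shift from a median of 0.54 under TMM to 1.61 with totals and lie at 1.21 to 2.20 without hot library 1.

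Summed over the family with identical rows added once, miR160 had 277, 2223 and 2069 entered counts in the hot and 312, 777 and 692 in the normal libraries. In the fit of 32 family sums the log2 fold change was 0.86 (SE 0.59, adjusted p = 0.32 in edgeR), not called, where 34.4% of families were. It was 1.52 with the library totals (adjusted p = 0.0823) and 1.28 under TMM without hot library 1 (adjusted p = 0.0549), neither called, where 31.2% of families were in each. With totals and without hot library 1 it was 1.97 (adjusted p = 0.024 in edgeR), where 34.4% of families were called. It was also called with totals and no filter (1.52, adjusted p = 0.0401, where 7.96% were) and with totals and the block (1.31, adjusted p = 0.00859, where 40.6% were). With whole multiples also added once, the sum over the 12 distinct patterns was 1467, 7237 and 6692 RPM in the hot and 1007, 2461 and 2094 in the normal libraries. The difference of the group means was 3278 RPM (exact two-sided permutation p = 0.3), and with 3 against 3 libraries that test cannot go below 0.1.

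The family varied more between libraries of a temperature than most names did. In the hot group the highest level of mir160g was 6.88 times the lowest, and in the normal group 3.69 times. Over the 14 tested miR160 names the median of that ratio was 5.90 in the hot and 3.15 in the normal libraries, beside 1.73 in the hot and 1.60 in the normal libraries over all tested names. The edgeR dispersion of the 14 names ran from 0.0966 to 0.361, with a median of 0.288, beside 0.099 for all tested names. Several of the 14 names are whole multiples of the sparse mir160g row, so these medians weigh its counts more than once. The lowest hot ratios among the 14 were 2.68 (mir160e-5p), 3.37 (mir160f) and 3.70 (mir160f-5p). In the normal libraries these names had 1.67, 2.16 and 1.44. The coefficient of variation of mir160a was 65.1% in the hot and 48.6% in the normal libraries. Its counting error was not set beside these values, since the row holds the mir160g counts many times over. For mir160g the coefficient of variation was 68.5% in the hot and 57.0% in the normal libraries. The relative counting error of a single library, the inverse square root of its mir160g count, averaged 38.5% in the hot and 51.1% in the normal libraries. That average is not the counting part of the coefficient of variation.

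Among 32 tested families, miR160 ranked 4 by the spread of its sum between hot libraries (5.26 times from lowest to highest), behind miR172, miR395 and miR535. In the normal libraries it ranked 13 (2.63 times), while its mean level ranked 7. The sum adds the sparse mir160g counts many times over, so these ranks are of entered counts and not of separate reads. Hot library 1 was the lowest hot library for all 19 miR160 names, as it was for 73.9% of all tested names on this scale. Normal library 1 was the lowest normal library for 18 of the 19, beside 49.8% of all, with mir160e-5p as the exception. Hot libraries 2 and 3 both lay above every normal library for all 19, beside 68.4% of tested names. All 3 hot libraries lay above all 3 normal ones for 0 of the 19, beside 43.1% of tested names.

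Other miRNAs of the auxin pathway were set beside miR160. miR167 pairs with transcripts of activating auxin response factors, miR390 triggers trans-acting small RNAs against a further group of ARFs, and miR393 pairs with auxin receptor transcripts. Of 31 tested names in these families, 1 was called higher (mir393b-3p) and 8 lower (all miR167) under TMM, where 7.11% of all tested names were called higher and 15.8% lower. The median log2 fold change over the 31 was -0.28. Names within these families also share counts. In the edgeR fit of family sums under TMM, miR167 had -0.08 (adjusted p = 0.774) and miR390 0.27 (adjusted p = 0.775). The miR393 sum had 2.65 (adjusted p = 0.0978), so no sum of these families was called, where 34.4% of families were.

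By entered counts summed over the 6 libraries, the 2 most abundant tested names of miR167 were mir167a, at -0.28 (adjusted p = 0.144 in edgeR), and mir167c, at -0.42 (adjusted p = 0.0412), while the library totals gave both a positive value (0.68 and 0.54). The call of mir167c was lost with DESeq2 size factors (adjusted p = 0.0703), the DESeq2 test (0.0815), no filter (0.465), 1 row per pattern (0.11) and without the miR156 names (0.805). In edgeR it was also lost without each hot library in turn, normal library 2 or normal library 3 (adjusted p of 0.0681 to 0.17), and without normal library 1 mir167a was called (-0.43, adjusted p = 0.0488). Those of miR390 were mir390b and mir390a, at -0.27 each (adjusted p = 0.894 in edgeR), both listed at 0 counts in normal library 2. By mean CPM over all 6 libraries mir390a-3p stood above mir390a, and its log2 fold change was 0.29 (adjusted p = 0.553 in edgeR). The means of mir390a-3p were 168 in the hot and 139.2 in the normal libraries, against 133.4 and 159.7 for mir390a. In the normal group it thus stood below mir390a. Those of miR393 were mir393b-3p, at 3.15 (SE 0.60, adjusted p = 0.0119 in edgeR), and mir393a, at 1.92 (adjusted p = 0.229 in edgeR). The CPM of mir393b-3p was 89.3, 166.9 and 71.0 in the hot libraries, against 14.0, 14.0 and 8.63 in the normal libraries. The normal values are near the floor.

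Ratios between family sums within a library need no scaling. The log2 ratio of the miR160 sum to the miR167 sum was -2.75, -0.83 and -1.07 in the hot libraries, against -2.74, -1.74 and -2.46 in the normal libraries. Hot library 1 and normal library 1 had nearly the same ratio. The mean difference was 0.77 (exact two-sided permutation p = 0.4, Benjamini-Hochberg adjusted 0.533 over 4 measures). For miR160 over miR390 the difference was 0.24 (exact permutation p = 0.8), and its sign turned without normal library 1 (-0.20) or normal library 3 (-0.28). For miR160 over miR393 it was -2.84 (exact permutation p = 0.2), with log2 ratios of 2.07, 3.36 and 4.62 in the hot and 6.70, 8.02 and 3.85 in the normal libraries. The miR393 sum was 3, 3 and 48 entered counts in normal libraries 1 to 3. The ratios of 6.70 and 8.02 thus rest on 3 miR393 counts each. A difference in these ratios was not shown at 3 libraries per group, where the smallest p is 0.1.

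**Figure D4:**
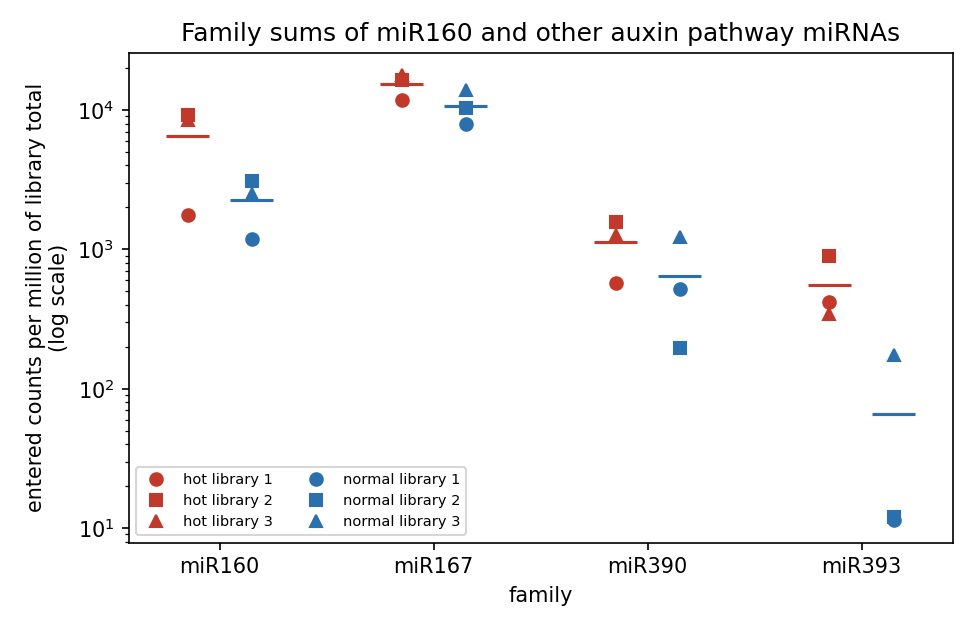
Sum of entered counts in RPM (log axis) for miR160, miR167, miR390 and miR393 in every library, identical rows added once, with group means as lines. The miR160 values lie at 1759, 9246 and 8484 in the hot and at 1181, 3105 and 2511 in the normal libraries.

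Names outside the family whose log2 CPM over the 6 libraries was most like that of mir160a were mir535b, mir535c and mir535a (Pearson r of 0.803, 0.797 and 0.796), mir168-3p (0.713) and mir390-3p (0.675). Spearman's rho was 0.771 for each of these. The 3 miR535 rows had 5, 36 and 50 (mir535b), 4, 34 and 48 (mir535c) and 9, 70 and 98 (mir535a) counts in the hot libraries, against 13, 17 and 19, 12, 16 and 18, and 25, 33 and 37 in the normal libraries. In every library the mir535a count equals the mir535b and mir535c counts added together, and those 2 rows are nearly alike. The 3 rows are therefore not separate matches. They were low in hot library 1 and high in hot libraries 2 and 3, as mir160a was. Their own log2 fold changes were near 0 under TMM (0.00 to -0.02). These correlations are a description over 6 libraries, and all names of a library share its depth and scaling. Within the family, r to mir160a was 0.967 or more for 11 of the other 13 tested names, 0.842 for mir160f-5p and 0.558 for mir160e-5p. Many of these rows hold the mir160g counts, as mir160a does. The high r values therefore do not show separate members varying together.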

How the data were processed

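RNA came from whole germinating seeds, extracted and size-enriched with the mirVana kit. NEBNext small RNA libraries were size-selected on beads, per the labels' protocols, and the design text names a MiSeq. Each library has 2 columns per the file headers, a raw one and a normalised one. Raw values are whole numbers, used here as deposited counts. The authors' normalised signal equals those counts over 1 total for each library. It was used to recover that total, as a median over names with more than 20 counts. What the totals hold, the matching tool and the miRNA release stay unstated in the sources used here. Sequences were not used.

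The tested fit took all 641 names and 6 libraries with edgeR 4.0.16 in R 4.3.3 (filterByExpr with minimum count 10, TMM, quasi-likelihood F test, group only). DESeq2 1.42.0 and limma 3.58.1 served as alternatives. The standard error is the log2 fold change over the square root of F. Family sums had a fit of their own. Column sums, 169694 to 377473 in the hot and 136294 to 203192 in the normal libraries, hold repeated entries and are not depths. The scripts were tested on simulated counts.

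All 19 miR160 names are accounted for. The other named miRNAs are the 2 most abundant of miR167, miR390 and miR393, the 5 most like mir160a (prior count 2 on log2 CPM), and families chosen after their values were seen. The members, lists and tests were chosen with earlier results of these data known. The planned 3p share could not be computed, since 0 names carry 3p, and ratios to other families were added in its place after the data were seen. The planned count of names above 0 was 19 in all 6 libraries.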

Additional observations from a re-analysis of the deposited data

How the results depend on the processing

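For the miR160 names, 0 calls were found under TMM and with the library totals, DESeq2 size factors, column sums, no filter, the DESeq2 test, limma-voom, 1 row per distinct pattern, no miR156 names and each library left out under TMM. Added after seeing the data, the totals without a filter gave 10 calls and the replicate block with the totals 12. The totals with 1 library left out gave 0 to 17. Names hold counts in common, so these calls are not separate observations. The miR160 sum was called at 1.52 with totals and no filter and at 1.31 with totals and the block. With 1 library left out it ran from 0.38 to 1.28 under TMM and from 1.18 to 1.97 with the totals. In all, 58 names were called, 31 with DESeq2 size factors, 104 in the DESeq2 test, 25 without miR156, 100 with totals and no filter, and 132 with totals and the block. With 1 library left out, 26 to 120 names were called under TMM and 58 to 135 with the totals. Of families 11 were called, and 5 without a filter. With 1 library left out, 3 to 12 families were called under TMM and 2 to 14 with the totals.

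Signs turned as follows. The name mir160e-5p had 0.89 with the totals, 0.0597 without a filter, 0.82 with totals and the block, and 0.89 with totals and no filter. It had 0.0047 with 1 row per pattern and 0.22 without miR156. With 1 library left out it ran from -0.30 to 0.11 under TMM and from 0.62 to 1.21 with the totals. The name mir160f had -0.0367 with column sums. With 1 library left out under TMM, mir160f ran from -0.26 to 0.41 and mir160f-5p from -0.0882 to 0.48. Under the same setting mir160c ran from -0.0423 to 0.72 and mir160d from -0.0496 to 0.82. With the totals and 1 library left out all stayed positive. There mir160f ran from 0.84 to 1.49, mir160f-5p from 0.90 to 1.59, mir160c from 1.11 to 1.83 and mir160d from 1.11 to 1.88. With the totals mir167a had 0.68, mir167c 0.54, mir390a and mir390b 0.57, and without miR156 mir167a had 0.0742. For limma-voom mir390a had 0.87 and mir390b 0.90, and with the block 0.13 and 0.14. With 1 library left out under TMM they ran from -0.83 to 0.68 and from -0.84 to 0.68. The ratio of miR160 to miR390 ran from -0.28 to 1.20. The causes were not tested.

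The replicate numbers of the titles were not shown to pair the libraries. Correlations of deviations were 0.498, -0.319 and 0.0279 for numbers 1 to 3, and 2 of the 6 libraries correlated best with their own number. With 3 libraries per group these values cannot settle whether the numbers pair them. The replicate block under TMM gave 63 calls over all names and 0 for miR160, and the miR160 sum had 0.69 (adjusted p = 0.161 in edgeR). The smallest row held 2 counts in hot library 1 and in normal library 1, whose totals were 157488 and 264112. With so few counts, its values there have the largest counting error relative to their size. The part of depth in the low values of hot library 1 was not tested.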
